A study of Mus musculus with 23 samples.

Results

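The annexins are a family of proteins that bind phospholipid membranes when calcium is present. The family genes considered here are Anxa1, Anxa2, Anxa3, Anxa4, Anxa5, Anxa6, Anxa7 and Anxa11, measured in the whole hippocampus of 14 mice of 15 months and 9 mice of 2 months. All were male C57BL/6JNIA mice, and all had learned to find a platform in the Morris water maze, which tests spatial memory, before they were killed. The labels name no other treatment and no allele. Members were found by their gene symbol in the array's annotation. Of the 8 genes listed, 7 had at least 1 probe set of their own, 10 probe sets in all among 12422 non-control probe sets. Anxa11 shared its only probe set with other gene symbols, so that probe set is described below without a gene name. The question was which annexin transcripts differ in level between middle-aged and young mice.

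All annexins share a conserved core that carries the calcium and membrane binding sites, and differ in the tail in front of it, which binds partner proteins. Anxa2 pairs through its tail with S100a10, a small S100 protein, and the complex sits under the plasma membrane, where it links membrane to actin and can bind plasminogen and its activator. Anxa1 is known as a protein that glucocorticoids induce and that acts on formyl peptide receptors to limit inflammation. Anxa5 is known for binding phosphatidylserine on dying cells, Anxa6 carries a duplicated core, and Anxa7 and Anxa11 have long tails that bind the calcium sensors sorcin and Pdcd6.

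Array values were MAS5 signals, brightness on a linear scale with 1 value per probe set and mouse. Array medians ran from 154.9 to 187.95. The array least like the rest was that of 15-month replicate 13, whose correlations with them had a median of 0.947. The brightest probe sets, by the 99th percentile, were dimmest on 4 arrays: 15-month replicates 3 and 12, with replicates 7 and 8 among the 2-month mice. Probe sets whose mean log2(signal + 16) was above the 40th percentile of all, a signal of 91.7, were tested, and 7453 passed this limit. Of the 10 annexin probe sets 6 passed, 1 each for Anxa2, Anxa3, Anxa4, Anxa5, Anxa6 and Anxa7. The other 4, 3 for Anxa1 and a second for Anxa7, were too dim and have values but no test. The 14 neuronal markers on the array, which include general neuronal genes such as Snap25, summed to signals of 29668 to 38212 at 15 months and 30752 to 35337 at 2 months. They show neuronal tissue, and with no other brain region measured here they cannot tell hippocampus from another region. The RNA came from whole tissue, so more cells of a type and more RNA per cell cannot be told apart in any result below.

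The sequence before the start of Anxa2, the annexin that rose, and that before the start of Anxa1, whose dim signals spread at 15 months, are shown for their core promoter elements. They are the 250 bases before the annotated start in RefSeq, build GRCm38.p6, at chr9:69453433-69453682 on the plus strand for Anxa2 and at chr19:20390672-20390921 on the minus strand for Anxa1. Capitals mark matches on either strand to TATAAA (the TATA box), GGGCGG (the GC box), TGANTCA (the AP-1 site) and CCAAT (the CCAAT box).
Anxa2: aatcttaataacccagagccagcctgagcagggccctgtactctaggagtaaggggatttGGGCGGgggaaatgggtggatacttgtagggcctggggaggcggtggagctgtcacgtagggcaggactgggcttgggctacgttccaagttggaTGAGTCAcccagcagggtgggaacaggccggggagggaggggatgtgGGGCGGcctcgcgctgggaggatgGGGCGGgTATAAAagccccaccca
Anxa1: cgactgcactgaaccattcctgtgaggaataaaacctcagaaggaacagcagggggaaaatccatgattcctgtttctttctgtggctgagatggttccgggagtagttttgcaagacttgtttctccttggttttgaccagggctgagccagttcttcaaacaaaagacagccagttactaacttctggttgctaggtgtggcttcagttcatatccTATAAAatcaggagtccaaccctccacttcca
The Anxa2 window held 1 TATA box, 3 GC boxes and 1 AP-1 site, and the Anxa1 window held 1 TATA box only. No 2 of these matches overlap. Among 32851 promoter windows of the same length, 12.4% held the TATA box, 32.7% the GC box, 6.75% the AP-1 site and 33.8% the CCAAT box. The windows of Anxa4, Anxa5 and Anxa7 held neither the TATA box nor the AP-1 site. The GC box was found 1 and 4 times in the 2 windows of Anxa7 and not in those of Anxa4 and Anxa5. No window was available for Anxa3 or Anxa6. A match is a run of letters and was not tested as a binding site.

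Anxa2 was higher in the hippocampus at 15 months than at 2 months, and it was the only annexin among the 6 with a tested probe set to pass the test over all probe sets. Its signal was 222.3 at the lowest, 301.7 at the median and 450.4 at the highest among the 15-month mice, against 149.4, 194.5 and 309.5 among the 2-month mice. Every 15-month mouse exceeded the mean of the young mice, and 5 of 14 exceeded the highest of them. That mouse, replicate 2, stood apart from its group, whose next highest signal was 227.1, a value that 13 of 14 mice of 15 months exceeded. The mean was 309 ± 68.5 (SD, n = 14) at 15 months and 198 ± 48.5 (SD, n = 9) at 2 months. The log2 change was 0.61 ± 0.12 (SE; limma adjusted p = 0.0128), a rise of 1.52-fold (95% interval 1.28 to 1.81) on the log2(signal + 16) scale. The call was lost in the exact permutation test of rank sums (adjusted p = 0.0680) and with the 4 arrays of dimmest 99th percentile left out (adjusted p = 0.0697). RefSeq lists a pseudogene of Anxa2, Gm41080, and whether the probes also match it was not tested.

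Of the 6 tested annexin probe sets 1 passed at a false discovery rate of 0.05, against 0.376% of the 7453 tested probe sets, of which 0.335% were called higher and 0.0403% lower. Before adjustment 4 of the 6 had p under 0.05, all of them higher, against 5.89% of all tested probe sets higher and 6.51% lower at that level. The log2 change was above 0 for 5 of the 6 and for 45% of all tested probe sets. The median log2 change of the 6 was 0.20, that of all tested probe sets -0.02. The annexins were chosen with earlier results of these data known, so these shares are no test of the family.

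**Figure D1:**
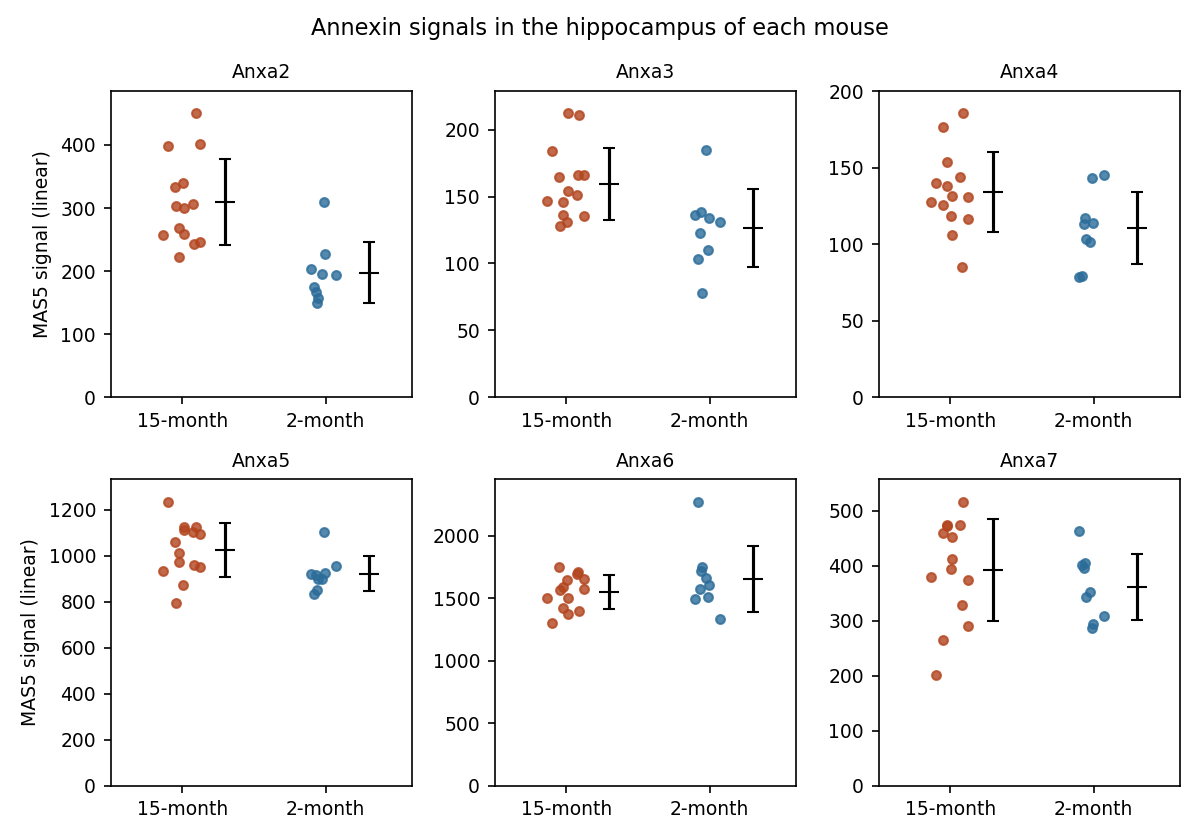
MAS5 signal (linear scale) of the 6 tested annexin probe sets in each mouse, 15-month mice on the left and 2-month mice on the right of each panel; bars show mean and SD. The Anxa2 signals of the 15-month mice run from 222.3 to 450.4 and those of 8 of the 9 mice of 2 months lie at or below 227.1, while the ages overlap widely for Anxa6 and Anxa7.

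Anxa3, an annexin known from neutrophils and from microglia, had signals of 128.1, 152.7 and 212.4 (lowest, median and highest) at 15 months, against 78.2, 131 and 184.6 at 2 months. Every 15-month mouse exceeded the mean of the young mice, yet 12 of the 14 lay within the range of the 2-month mice. The log2 difference of 0.31 ± 0.11 (SE) did not pass (limma adjusted p = 0.255). Its 95% interval, 0.08 to 0.55, did not include 0 before adjustment.

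Anxa4, which is known for its abundance in secretory epithelia, had signals of 85, 131.1 and 185.5 at 15 months, against 78.5, 113.2 and 145.1 at 2 months. The groups overlapped: 12 of 14 mice of 15 months exceeded the 2-month mean and 3 the highest 2-month mouse. The log2 difference was 0.25 ± 0.12 (SE; limma adjusted p = 0.393).

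Anxa5, the phosphatidylserine binder, had signals of 795.8, 1035.6 and 1235.5 at 15 months, against 834, 916 and 1103.3 at 2 months. The lowest mouse of all was a 15-month one, and 5 of the 14 were above the highest 2-month mouse, again replicate 2. The log2 difference was 0.15 ± 0.07 (SE; limma adjusted p = 0.372).

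Anxa6, the annexin with the duplicated core, was the tested member whose estimate lay below 0. Its signals were 1303.4, 1568.4 and 1749.1 at 15 months, against 1330.2, 1608.3 and 2270.7 at 2 months, with a single high 2-month mouse, replicate 5. None of the 15-month mice was above the highest 2-month mouse, and 13 of the 14 lay within the 2-month range. The log2 difference was -0.09 ± 0.07 (SE; limma adjusted p = 0.636), and -0.03 without that mouse.

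Anxa7, also called synexin for its role in fusing secretory granules in vitro, varied more among the 15-month mice. Its brighter probe set had signals of 201.5, 403.4 and 516.6 at 15 months, against 286.7, 352.9 and 463.1 at 2 months, so that 15-month mice lay both above and below the 2-month range. The log2 difference was 0.09 ± 0.13 (SE; limma adjusted p = 0.811), with a 95% interval of -0.17 to 0.36, and ran from 0.05 without 2-month replicate 2 to 0.16 without 15-month replicate 3. The dim second probe set of Anxa7 had signals of 3.9 to 49 at 15 months and 8.7 to 61.7 at 2 months (log2 difference -0.09 ± 0.22 SE in a fit without the brightness limit).

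The probe set annotated to several symbols, of which Anxa11 is 1, had signals of 1655.7, 2243.9 and 2719.6 at 15 months, against 1280.9, 1996.7 and 2344.9 at 2 months. Its log2 difference was 0.22 ± 0.09 (SE; limma adjusted p = 0.289), and 12 of 14 mice of 15 months exceeded the 2-month mean. It is not counted among the annexin probe sets above.

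Anxa1 was dim on all 3 of its probe sets, here named A, B and C, and could not be called, but its signals spread far more at 15 months. On probe set A the 15-month mice had signals of 5.6, 20.9 and 71.4 (lowest, median and highest), against 3.8, 9.4 and 11.1 in the 2-month mice. The highest 2-month mouse was exceeded by 11 of 14 mice of 15 months, the largest share for any annexin probe set here. The highest were replicates 5, 8 and 7, at 71.4, 64.2 and 55.9. On the log2(signal + 16) scale the SD between mice was 0.66 at 15 months and 0.14 at 2 months.

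The 2 other Anxa1 probe sets leaned the same way with more overlap. On probe set B the signals were 6.3, 40 and 125.4 at 15 months, against 6.3, 11.3 and 41 at 2 months, and 7 of 14 mice of 15 months exceeded the highest 2-month mouse. On probe set C they were 1.1, 8.1 and 43.3 at 15 months, against 0.8, 5 and 10.2 at 2 months, with 5 of 14 above. In a fit without the brightness limit the log2 differences were 0.70 ± 0.22, 0.66 ± 0.30 and 0.40 ± 0.20 (SE), and none passed (limma adjusted p = 0.239, 0.476 and 0.534). The array's suffixes mark A and B as sets whose probes can match related sequences, and C as an incomplete set.

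The 3 Anxa1 probe sets did not rank the mice alike. Among the 14 mice of 15 months A and B had r = 0.561 (permutation p = 0.0398, adjusted 0.119 over 3 pairs) and rho = 0.596 (permutation p = 0.0277, adjusted 0.0830), and r = 0.583 without the 2 mice farthest from the median. The pair of A and C had r = 0.0076 (permutation p = 0.980) and rho = -0.231 (permutation p = 0.426). Detection calls were not used here, so how much of these low signals is Anxa1 transcript was not tested.

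**Figure D2:**
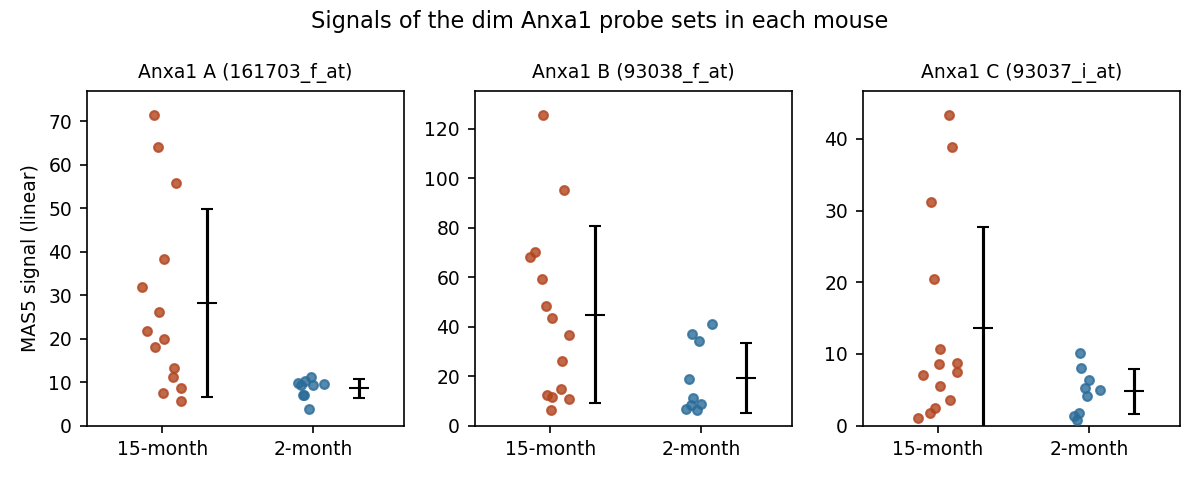
MAS5 signal (linear scale) of the 3 Anxa1 probe sets in each mouse, with mean and SD (the lower bar of C at 15 months runs off the axis at 0); all have means below the brightness limit for testing. On probe set A the 15-month mice reach 71.4 and the 2-month mice stay at or below 11.1.

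Annexins outside the 8 genes were dimmer still. Anxa8 had signals of 13.4 to 103.4 at 15 months and 10 to 65 at 2 months, and Anxa10, an annexin of stomach, of 1.8 to 16.2 at 15 months and 1.1 to 10.7 at 2 months. Neither was bright enough to be tested.

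The S100 proteins that bind annexins differed among themselves. Of 6 such genes 4 were tested and 2 rose, S100a6 and S100b, with a median log2 change of 0.21. The share called higher over all tested probe sets was 0.335%, which is no test of this list, chosen with earlier results of these data known. S100a6, a calcium sensor that binds Anxa2 and Anxa11, had signals of 423.8, 522.7 and 685.8 at 15 months, against 328.8, 392.6 and 457.5 at 2 months, and 9 of 14 mice of 15 months exceeded the highest 2-month mouse. Its log2 change was 0.40 ± 0.09 (SE; limma adjusted p = 0.0288). This call is marginal: it was lost on leaving out any of 15-month replicates 2, 5, 7 and 8 or of 2-month replicates 1, 3, 4, 7 and 8 (highest adjusted p 0.0909), in the exact permutation test of means (0.0590), with choroid plexus or meningeal genes in the model (0.0530 and 0.0663) without the 5 arrays of high choroid plexus signal (0.168), and with the 4 arrays of dimmest 99th percentile left out (0.103). S100b, the astrocyte protein that binds Anxa6, rose by 0.43 ± 0.09 on the log2 scale (limma adjusted p = 0.0128, but 0.0536 in the exact permutation test of rank sums).

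S100a10, the partner of Anxa2 in its complex, did not pass the test on either of its probe sets. Its brighter probe set had signals of 586.3, 755.1 and 851.5 at 15 months, against 609.3, 717.6 and 882.5 at 2 months. The log2 difference was 0.0028 ± 0.08 (SE; limma adjusted p = 0.991), with a 95% interval of -0.16 to 0.17. A second probe set gave a difference of the other sign, -0.50 ± 0.15 (SE; limma adjusted p = 0.148), so the probe sets disagree. The interval of the Anxa2 change, 0.36 to 0.86, does not overlap that of either S100a10 probe set, but the difference between the genes was not tested. S100a1, which binds Anxa6, had a log2 difference of 0.02 (limma adjusted p = 0.933) on a probe set whose suffix, as for Anxa1, marks probes that can match related sequences. Its other probe sets were below the limit. Fitted without that limit they gave -0.48 ± 0.19 and -0.20 ± 0.27 (SE; limma adjusted p = 0.389 and 0.882). S100a4, another partner of Anxa2, was also below the limit, at 97.6 ± 35.2 in 15-month mice and 75.4 ± 17.7 in 2-month mice.

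**Figure D3:**
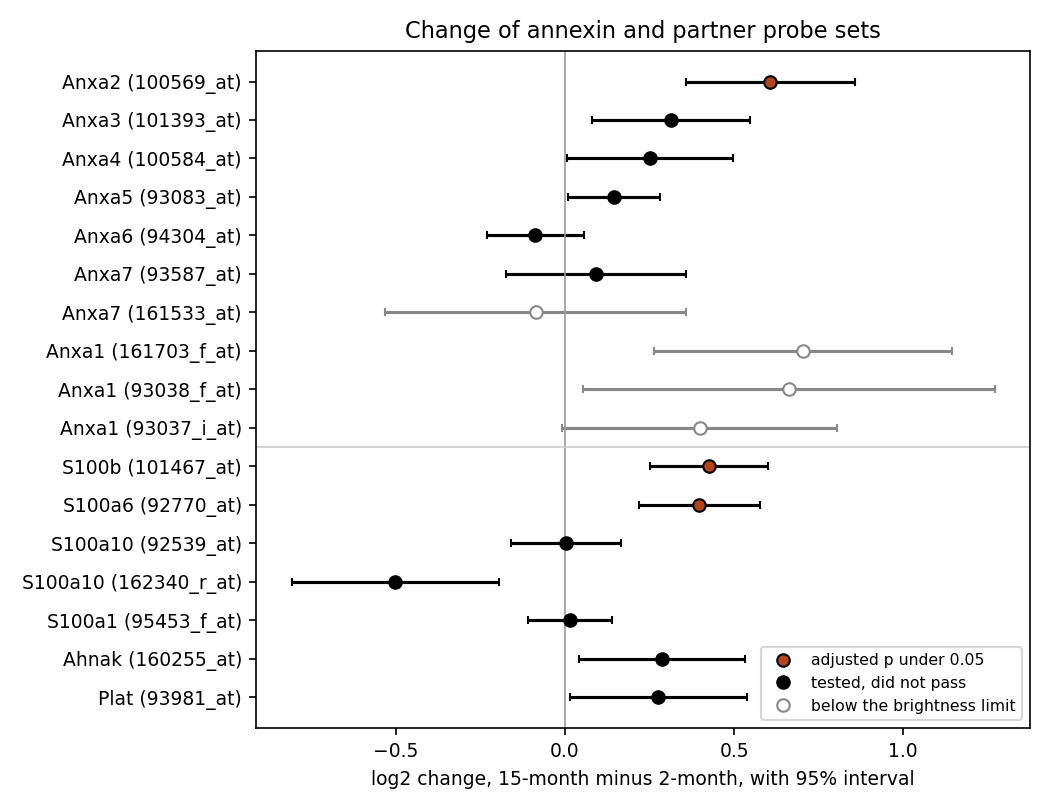
Log2 change (15-month minus 2-month, log2(signal + 16) scale) with 95% interval for the annexin probe sets above the line and partner genes below it. Anxa2, S100b and S100a6 passed the test; open symbols are probe sets below the brightness limit, fitted without that limit.

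Genes of the pathways in which annexins act showed no call. With 0.376% of all tested probe sets called, lists this short would rarely hold a call. Of 16 tested genes of other partners (calpains, actins, sorcin, Pdcd6 and membrane repair proteins) 0 passed in either direction, with a median log2 change of 0.03. Among them Ahnak, a giant scaffold protein that binds the complex of Anxa2 and S100a10, averaged 827 ± 156 at 15 months and 681 ± 177 at 2 months (log2 difference 0.29 ± 0.12, limma adjusted p = 0.324). Of 5 tested genes of the plasminogen system 0 passed (median -0.02). Plat, the tissue plasminogen activator, had signals of 750.7, 1048.4 and 1833.2 at 15 months, against 799.5, 930.8 and 1068.1 at 2 months (log2 difference 0.28 ± 0.13, limma adjusted p = 0.372), and 6 of the 14 mice of 15 months lay above every 2-month mouse. Of 5 tested genes from the list of formyl peptide receptors and phospholipase A2 0 passed (median 0.01). They were Pla2g6, Pla2g7, Pla2g12a, Pla2g1b and Ptgs2, so no formyl peptide receptor was tested. Of 9 genes of phosphatidylserine exposure and clearance 0 passed (median 0.07). Mfge8, a bridging protein that like Anxa5 binds phosphatidylserine, averaged 5720 ± 778 at 15 months and 6391 ± 1102 at 2 months (log2 difference -0.15 ± 0.09, limma adjusted p = 0.487).

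Of the 19 tested genes that glucocorticoids induce, 3 rose, Sgk1, Zbtb16 and Rhob, against 0.335% of all tested probe sets called higher. The median log2 change of the list was 0.29. This list too was chosen with earlier results of these data known, so the shares are no test of it. The log2 changes of the 3 genes were 0.97 for the kinase Sgk1, 0.29 for the transcription factor Zbtb16 and 0.30 for the small GTPase Rhob. The summed signal of the list was 33647 to 51611 at 15 months and 33507 to 37419 at 2 months. Among the 15-month mice the mean of this list had no relation to Anxa2 past the threshold (r = -0.166, permutation p = 0.565, adjusted 0.744 over 48 relations; rho = -0.222, permutation p = 0.445, adjusted 0.790; r = -0.126 without the 2 farthest mice).

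Markers of cell types that are known to carry annexins were measured on the same arrays. Microglia and macrophage genes moved with age: of 16 tested 5 rose (Ctss, Ly86, Mpeg1, C1qb and C1qc) and 15 were above 0, with a median log2 change of 0.23. Over all tested probe sets 0.335% were called higher and 45% were above 0. The list was chosen with earlier results of these data known, so these shares are no test of it. Ctss, a lysosomal protease, had a log2 change of 0.50, Ly86, which pairs with the innate immune receptor of B cells and macrophages, of 0.62, and Mpeg1, whose product makes pores in engulfed bacteria, of 0.55. The complement chains C1qb and C1qc had changes of 0.33 and 0.31. The signals of the list's 22 genes on the array summed to 12472 to 14982 at 15 months and 10167 to 12362 at 2 months. Its part in the Anxa2 rise was not tested.

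Of 16 astrocyte genes 1 rose, S100b (list median 0.04), and of 19 genes of endothelium and pericytes 1 rose, the glucose transporter gene Slc2a1 (log2 change 0.55, list median 0.02). No tested gene passed among 19 of meninges and fibroblasts (median 0.15), 6 of choroid plexus and ependyma (median 0.16), 9 of oligodendrocytes (median -0.09), 1 of red blood cells, 5 of neutrophils and lymphocytes (median -0.03) and 11 of hippocampal neurons (median -0.01). Lists of these sizes would rarely hold a call at the share of 0.376% over all tested probe sets. The summed signal of meningeal genes was 12033 to 35714 at 15 months and 14692 to 28559 at 2 months, and that of endothelium and pericytes 5496 to 9197 at 15 months and 5341 to 7426 at 2 months. With the mean of the meningeal list in the model the log2 change of Anxa2 was 0.54 (limma adjusted p = 0.0320).

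The single mouse with most Anxa2 at each age also had the highest mean of choroid plexus genes. At 2 months replicate 9 came next for both, while at 15 months the order of the next mice was mixed. Choroid plexus, the tissue that makes cerebrospinal fluid, borders the hippocampus. The 9 markers on the array are of choroid plexus and ependyma together and are called choroid plexus genes for short. They summed to 792 to 13022 at 15 months and 893.5 to 11980 at 2 months, a spread that both ages shared. Ttr alone reached 9921.9 at 15 months and 9134.2 at 2 months. None of the 9 markers was listed at 0. Each age was split at the widest gap in the mean of the 6 tested markers, a rule that always gives a high group. The mean was 8.99 to 9.71 on the log2 scale in 15-month replicates 3, 5, 7 and 11. It was 6.91 to 7.77 in the other 10 mice of that age. In 2-month replicate 2, the only high mouse of its age, it was 9.62, against 6.90 to 8.34 in the other 8 mice. That replicate had the highest Anxa2 signal of its age, 309.5, and 15-month replicate 7 that of its own, 450.4. The next highest Anxa2 signal at 15 months, 401.4 in replicate 2, came with a choroid plexus mean of 7.77. Replicate 3 followed at 398.9 with a mean of 8.99, and replicate 1, at 340.4, had the lowest mean of its age, 6.91. The 4 mice of 15 months with a high mean had Anxa2 signals of 306.4 to 450.4, against 222.3 to 401.4 in the other 10.

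The 5 genes whose values over 23 mice, after subtracting each age's mean, were most like those of Anxa2 were drawn from 5679 genes. They were Cdkn1c (r = 0.776, rho = 0.660), a cell cycle inhibitor, Col9a3 (0.733 and 0.686), a collagen chain, Ttr (0.703 and 0.531), the thyroid hormone carrier made by choroid plexus, Kl (0.697 and 0.536), the klotho gene also active in that tissue, and Slc30a4 (0.694 and 0.729), a zinc transporter. Ttr had a signal of 9921.9 in 15-month replicate 7 against a median of 248.6 at that age, and of 9134.2 in 2-month replicate 2 against a median of 156.4. Without the 5 mice of high choroid plexus signal the likeness over the remaining 18 mice was 0.433 for Cdkn1c, 0.457 for Col9a3, 0.257 for Ttr and 0.101 for Kl, and 0.680 for Slc30a4. None of these genes changed with age by the test (limma adjusted p between 0.676 and 0.871).

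Within the 10 mice of 15 months with low choroid plexus signal Anxa2 had no relation to it past the threshold (r = -0.0853, permutation p = 0.805, adjusted 0.941 over 6 annexins; rho = -0.0182, permutation p = 0.973, adjusted 0.973; r = 0.0234 without the 2 farthest mice). Within the 8 such mice of 2 months the values were r = 0.429 (exact permutation p = 0.299, adjusted 0.514) and rho = 0.167 (exact permutation p = 0.703, adjusted 0.703), with r = 0.0492 without the 2 farthest. Leaving out the high mice narrows the range over which a relation could be seen. Across high and low mice of 15 months together the relation was r = 0.610 (permutation p = 0.0210, adjusted 0.163 over 48 relations). By rank it was rho = 0.486 (permutation p = 0.0799, adjusted 0.349), with r = 0.467 without the 2 farthest mice. Across those of 2 months it was r = 0.828 (exact permutation p = 0.0167, adjusted 0.212). There rho was 0.417 (exact permutation p = 0.270, adjusted 0.647), with r = -0.234 without the 2 farthest. With all mice the Anxa2 log2 change between the ages was 0.61. It was 0.58 without the 5 mice (limma adjusted p = 0.0270) and 0.53 with the choroid plexus mean in the model (limma adjusted p = 0.00739). Both settings were chosen after the data were seen, and the part of choroid plexus in the Anxa2 rise was not tested. The 10 remaining mice of 15 months had Anxa2 signals of 222.3 to 401.4 and the 8 remaining mice of 2 months 149.4 to 227.1.

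**Figure D4:**
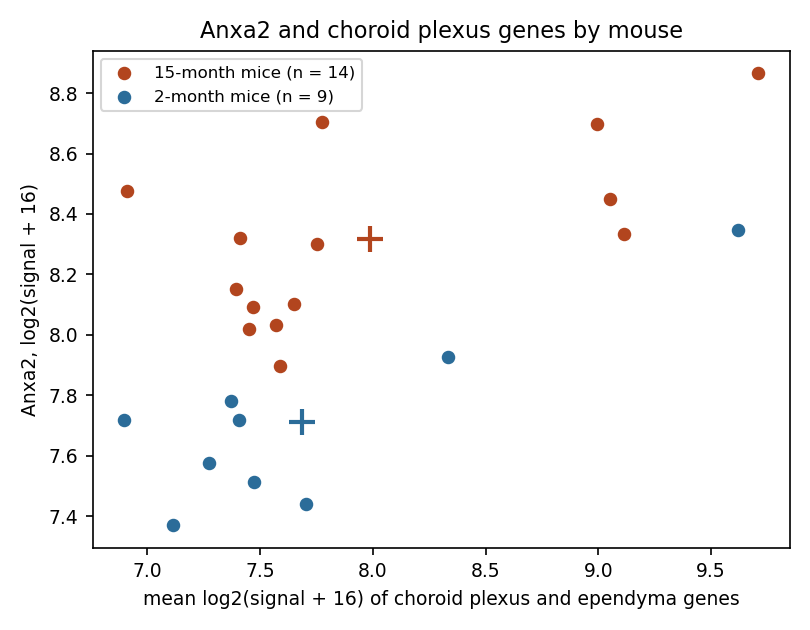
Anxa2 (vertical axis, log2(signal + 16)) against the mean of choroid plexus and ependyma genes (horizontal axis, same scale) for each mouse; crosses are the means of each age. The mice at 8.99 or above on the horizontal axis are 4 of 15 months and 1 of 2 months, and among the rest the 15-month mice lie higher on the vertical axis, with overlap at the edge.

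Among the annexins themselves, Anxa3 and Anxa5 varied together in the 15-month mice. Their correlation was r = 0.75 (permutation p = 0.00183, adjusted 0.0274 over 15 pairs) and rho = 0.818 (permutation p = 6.5e-04, adjusted 0.00975), and r = 0.808 without the 2 mice farthest from the Anxa3 median. The highest mice for Anxa3 were replicates 12 and 7, at 212.4 and 211.4, and both had an Anxa5 signal of 1124.7. Of the other 14 pairs at that age none passed. In the 10 mice of low choroid plexus signal the pair had r = 0.737 (permutation p = 0.0142, adjusted 0.213 over 15 pairs) and rho = 0.758 (permutation p = 0.0151, adjusted 0.226), and r = 0.598 without the 2 farthest, so it no longer passed with fewer mice. Markers of other tissue leaned the same way as both genes. In those 10 mice the choroid plexus mean had r = 0.688 with Anxa5 (permutation p = 0.0253, adjusted 0.152; rho = 0.709, permutation p = 0.0270, adjusted 0.162) and r = 0.528 with Anxa3 (permutation p = 0.123, adjusted 0.368; rho = 0.636, permutation p = 0.0540, adjusted 0.162). Over all 14 mice the endothelium and pericyte mean had r = 0.650 with Anxa3 (permutation p = 0.0122, adjusted 0.145 over 48 relations; rho = 0.675, permutation p = 0.0100, adjusted 0.204) and r = 0.519 with Anxa5 (permutation p = 0.0579, adjusted 0.278; rho = 0.526, permutation p = 0.0562, adjusted 0.324). Without the 2 farthest mice these 4 values of r were 0.711, 0.470, 0.590 and 0.335. None of these relations passed, and the part of either tissue in the pair was not tested. At 2 months Anxa3 and Anxa5 had r = -0.0624 (exact permutation p = 0.854, n = 9, adjusted 0.915) and rho = -0.0833 (exact permutation p = 0.843), and whether the ages differ in this was not tested.

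**Figure D5:**
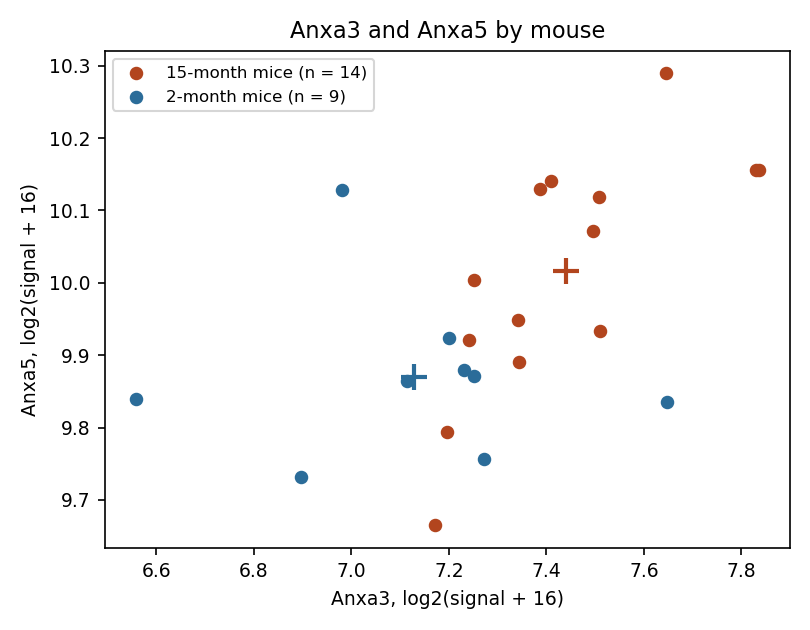
Anxa5 against Anxa3, both as log2(signal + 16), for each mouse; crosses are the means of each age. The 15-month mice rise along both axes together (r = 0.75, n = 14), and the 2-month mice do not (r = -0.0624, n = 9).

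In the 2-month mice Anxa4 followed the mean of the endothelium and pericyte genes, with r = 0.954 (exact permutation p = 9.6e-05, n = 9, adjusted 0.00463 over 48 relations) and r = 0.867 without the 2 farthest mice. By rank the relation missed the threshold after adjustment (rho = 0.917, exact permutation p = 0.00131, adjusted 0.0630). At 15 months it was r = 0.391 (permutation p = 0.169, adjusted 0.463) and rho = 0.398 (permutation p = 0.162, adjusted 0.518). None of the other relations between an annexin and a list mean passed at either age by r or by rho.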

How the data were processed

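The deposited table holds intensities (MAS5 signals, linear), which the authors computed with MAS5, per the submitters' processing notes. No source used here gives its version or settings. The mean of each array after trimming 2% at each end was 500.3, so arrays had been scaled alike and were used as deposited. Gene names came from the array's annotation (10833 of 12422 with 1 symbol, 396 with several, 1193 with none), and the 66 control probe sets were left out. Ages were taken from the labels, which call the samples biological replicates and give no batch or pairing.

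Signals were analysed as log2(signal + 16), so fold changes of dim genes are understated. Differences, 15-month minus 2-month, were tested two-sided by limma 3.58.1 (eBayes with trend and robust; R 4.3.3), with Benjamini-Hochberg adjustment over 7453 probe sets and a false discovery rate of 0.05. The script was tested on simulated data. Each gene of a list stood for its brightest tested probe set with 1 symbol. Correlations within an age used 100000 permutations, or all pairings for under 10 mice, two-sided, adjusted within each age and family. Exact tests used all 817190 regroupings. Python 3.11.15, numpy 2.4.6, scipy 1.17.1, pandas 2.3.3 and matplotlib 3.10.9 were used.

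The members and the gene lists (annexin partners, plasminogen system, formyl peptide receptors and phospholipase A2, phosphatidylserine clearance, glucocorticoid-responsive genes and cell type markers) were chosen with earlier results of these data known. Named were all annexin probe sets, list members past the threshold, S100a10, S100a11, S100a6, Ahnak, Plat and Mfge8, and the 5 genes most like each called annexin. S100a11 had no probe set of its own. S100a1, S100a4, Anxa8 and Anxa10 fall outside this rule and were picked once values were known. The number of arrays limits the precision.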

Additional observations from a re-analysis of the deposited data

Results flagged for a closer look

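Among the 9 mice of 2 months, replicate 2 stood far above the others for Anxa2, with a signal of 309.5, and for Anxa5, with 1103.3. The same mouse had the highest choroid plexus signal of its age, and the part of that tissue in these values was not tested. For Anxa6, replicate 5 of the 2-month mice stood apart with 2270.7. Such a gap arises by chance in about 1 of 20 groups, and 11 groups were looked at. On the log2 scale the gap remained for Anxa5 and was below the limit for Anxa2 and Anxa6.

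The Anxa1 probe set A, too dim for the test, had a median signal of 20.9 at 15 months, above the highest 2-month mouse at 11.1. The difference between the ages did not pass in the fit without a brightness limit (limma adjusted p = 0.239).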

How the results depend on the processing

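No paired analysis was possible because the labels give no number that pairs mice of the ages. The log2 change of Anxa2 kept its direction in all 36 alternatives in which it was tested, from 0.51 to 0.69, and its call in 34. It was 0.55 without the 4 arrays of lowest 99th percentile (adjusted p = 0.0697) and 0.61 in the exact permutation test of rank sums (adjusted p = 0.0680), where the call was lost; leaving out any 1 mouse gave 0.56 to 0.69 (adjusted p 0.00364 to 0.0393). The count of annexin probe sets called was 0 in these settings and 0 with the 60th-percentile filter, which does not test Anxa2, and 1 without any 1 mouse. Over all probe sets the count was 28, 20 to 39 without any 1 mouse, 49 (34 higher, 15 lower, against 25 and 3) with array 25th percentiles in the model and 16 without the arrays of high choroid plexus signal, a setting with fewer samples. Anxa3, Anxa4, Anxa5, Anxa6 and Anxa7 kept their direction and stayed short of the threshold in every alternative in which they were tested, but the size of the small differences rested on single mice. Anxa6 was at -0.03 without 2-month replicate 5, against -0.09 with all mice. Anxa7, at 0.09, was at 0.16 without 15-month replicate 3, 0.06 without 15-month replicate 7, 0.05 and 0.06 without 2-month replicates 2 and 9, and 0.14 with those 4 arrays left out. Among 15-month mice the correlation of Anxa3 with Anxa5 was 0.75, and 0.737 (adjusted p = 0.213) without the high choroid plexus arrays (added once the values were known). The difference of the brighter S100a10 probe set, near 0, changed sign with the 25th percentile (-0.0078), the meningeal list (-0.0019) or the choroid plexus list (-0.00019) in the model, without the 4 arrays (-0.022), without the high choroid plexus arrays (-0.0024) and without single mice (-0.027 to 0.038). That of S100a1 ran from -0.0046 to 0.050 without single mice. The cause of these shifts was not tested.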
